A study of Mus musculus with 16 samples.

Results

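The cerebellins Cbln1, Cbln2, Cbln3 and Cbln4 were followed in RNA bound to tagged ribosomes from mouse hypothalamus. The transgene that tags the ribosomes is named after Pnoc, the gene of the nociceptin precursor. The 4 genes were taken by gene symbol from tables in which the authors list genes that differed between ribosome immunoprecipitate (IP) and input. For chow 3 of the 4 genes were listed, and for the high-fat diet 4 of 4. Those tables held 6686 and 6540 tests after repeated entries of a locus were merged. Because being listed required the authors' call, the genes were chosen by their FPKM and folds of IP over input, and these values are given as a description.

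All mice carried the PNOC-L10a-EGFP transgene on a C57BL/6N background, were 10 to 12 weeks old, and had eaten either control diet, called chow here, or high-fat diet for 3 days. The transgene couples the ribosomal protein L10a to a green fluorescent protein, so that an antibody pulls down ribosomes of the marked cells with the RNA they carry. Input and IP groups of both diets carry it alike. Each diet had 4 input libraries of the whole hypothalamus and 4 IP libraries. The labels do not say how the transgene is driven, whether animals were pooled, or whether libraries came from separate animals. The files give a single FPKM (fragments per kilobase of transcript scaled to library size) for each group of 4 libraries, so values per library, their spread and read depth are unknown. In bulk RNA, fewer cells of a type and less RNA per cell cannot be told apart.

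Cerebellins are small secreted proteins of the C1q family that organise synapses. The best known, Cbln1, is released by cerebellar granule cells, binds neurexins on the presynaptic side and delta-type glutamate receptors on the postsynaptic side, and so holds parallel fibre synapses on Purkinje cells together. Cbln2 binds the same kinds of partners in other brain regions, Cbln4 also binds the receptors DCC and neogenin, and Cbln3 is known mainly from cerebellar granule cells, where its secretion depends on Cbln1.

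The 4 genes are related in sequence, which bears on whether short reads can be told apart. Over aligned coding bases of the GENCODE M21 transcripts (build GRCm38), identity ran from 64.3% between Cbln3 and Cbln4 to 75.1% between Cbln1 and Cbln2. The longest run of identical bases shared by any pair of transcripts was 21 bases, between Cbln1 and Cbln3 and between Cbln2 and Cbln4. The stretch of 90 coding bases that is most alike in Cbln1, Cbln3 and Cbln4, near the end of the coding sequence, is shown to make this visible. It lies in 1 exon in each, on the minus strand, at chr8:87470258-87470347 for Cbln1, chr14:55882984-55883073 for Cbln3 and chr2:172037374-172037463 for Cbln4. Capitals mark bases of Cbln3 or Cbln4 that differ from Cbln1, and in Cbln1 the bases at which either of the others differs.
Cbln1: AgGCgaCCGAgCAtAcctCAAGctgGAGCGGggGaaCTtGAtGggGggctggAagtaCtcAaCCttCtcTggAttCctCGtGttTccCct
Cbln3: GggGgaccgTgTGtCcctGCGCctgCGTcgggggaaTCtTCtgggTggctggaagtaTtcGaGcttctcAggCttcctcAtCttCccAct
Cbln4: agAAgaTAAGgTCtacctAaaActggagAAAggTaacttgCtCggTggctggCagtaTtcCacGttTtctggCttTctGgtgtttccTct
Even in this window 27 of the bases of Cbln3 and 26 of those of Cbln4 differed from Cbln1, and the differences were spread along it.

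Cbln2 (ENSMUSG00000024647, chromosome 18, 86711110 to 86718283, plus strand, GRCm38) had the highest fold of the family in both diets. In the authors' deposited table for chow it stood at 7.78 FPKM before and 28.2 FPKM after precipitation, a 3.62-fold difference. Its log2 fold was 1.85 with a standard error of 0.26, where the error is the log2 fold divided by the authors' test statistic. After the high-fat diet the deposited levels were 7.78 and 27.7 FPKM, with a log2 fold of 1.83 and a standard error of 0.26. These folds placed Cbln2 17th of 3531 enriched chow tests that reached 1 FPKM in either fraction, and 13th of 3554 after the high-fat diet. Pnoc, the gene after which the transgene is named, had log2 folds of 2.11 and 2.18 in the same deposited tables.

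Cbln4 (ENSMUSG00000067578, chromosome 2, 172036233 to 172043466, minus strand) came next in chow. The authors' deposited chow table gave an input level of 10.7 FPKM and an IP level of 25.0 FPKM, a 2.33-fold difference with a log2 fold of 1.22 and a standard error of 0.25. For the high-fat diet the deposited values were 11.5 and 21.6 FPKM, a log2 fold of 0.91 with the same standard error of 0.25. Its place among enriched tests moved from 76th in chow to 324th after the high-fat diet.

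Cbln1 (ENSMUSG00000031654, chromosome 8, 87468405 to 87472609, minus strand) was the most abundant member in every group and had the lowest fold of the 3 listed in both diets. The authors' deposited tables gave 36.6 FPKM for the input and 62.5 FPKM for the IP in chow, a log2 fold of 0.77 with a standard error of 0.24. After the high-fat diet they gave 33.6 and 55.7 FPKM, a log2 fold of 0.73 with a standard error of 0.25. With 62.5 FPKM, Cbln1 exceeded 84.8% of all listed chow tests in the IP. The span deposited for Cbln1, 87460469 to 87525554, is wider than the gene and equals that of Gm2694, a non-coding RNA gene on the opposite strand. Annotated exons of Gm2694 and of 3 further non-coding genes in the span share 0 bases with exons of Cbln1, and none of these genes was listed in either table.

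Cbln3 (ENSMUSG00000040380, chromosome 14, 55878913 to 55884392, minus strand) was listed in the authors' deposited high-fat table alone, with an input level of 0.297 FPKM and an IP level of 0.614 FPKM. Its log2 fold of 1.05 had a standard error of 0.76, and its q-value of 0.0301 was the member's value nearest to the authors' threshold of 0.05, against 0.000379, the lowest q-value in the tables, for each other listed member. Its input level exceeded that of 0.489% of the listed tests. Whether Cbln3 was tested in chow is not known, so its absence from that table is no sign of a difference between diets. None of 5 markers of cerebellar neurons (among them Gabra6, Fat2 and Pcp2), cells of the region that Cbln3 is known from, was listed for either diet. As only tests called significant were listed, this does not show that these markers were absent.

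**Figure D1:**
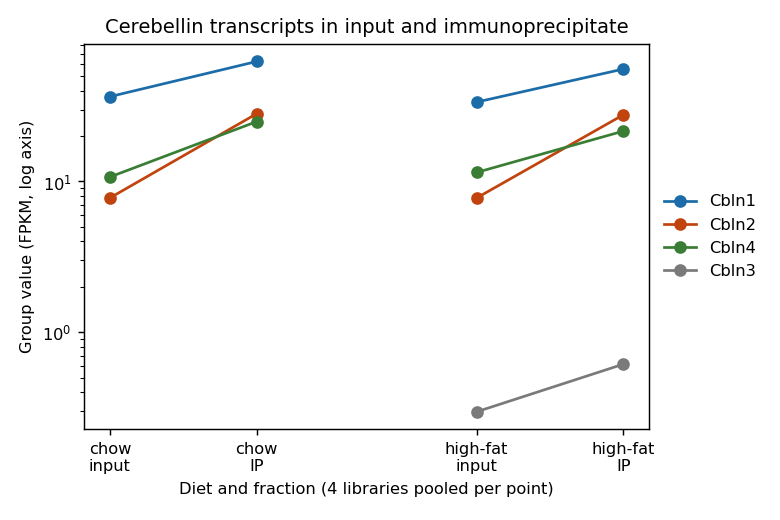
Authors' deposited FPKM of each cerebellin (log axis) in input and IP of each diet, 1 point per group of 4 libraries with no error available. Cbln1 is highest in all groups (33.6 to 62.5 FPKM), the lines of Cbln2 and Cbln4 cross between input and IP in both diets, and Cbln3 is shown for the high-fat diet alone, under 1 FPKM.

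Against the whole of the tables, 3 of 4 cerebellins were called enriched in chow and 4 of 4 after the high-fat diet, and 0 were called depleted in either. The q-values imply 24230 tests per table, if both tables were adjusted together, without other comparisons, and had equally many tests. Of these, the authors called 14.8% enriched and 12.7% depleted in chow, and 14.9% enriched and 12.1% depleted after the high-fat diet. As listing chose the genes, nothing is read from these counts. Among listed tests that reached 1 FPKM in either fraction, the median log2 fold was 0.41 in chow and 0.42 after the high-fat diet. Relative to that median, Cbln2 stood at 1.44 and 1.41, Cbln4 at 0.81 and 0.49, and Cbln1 at 0.36 and 0.31 log2 units.

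The order of the folds was Cbln2, Cbln4, Cbln1 in both diets, described here without a test. In chow, Cbln2 stood 0.63 log2 units above Cbln4 and 1.08 above Cbln1, each more than the sum of both standard errors (0.50). Cbln4 stood 0.45 above Cbln1, less than the sum of their errors (0.49). After the high-fat diet Cbln2 stood 0.92 above Cbln4 and 1.10 above Cbln1, while Cbln4 and Cbln1 were 0.18 apart, again less than the sum of their errors (0.50). The fold of Cbln3, with its wide error, lay within the summed errors of each other member. A sum of errors is wider than the error of a difference, and the recovered errors are themselves wide. A gap below that sum therefore does not show that folds were equal.

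**Figure D2:**
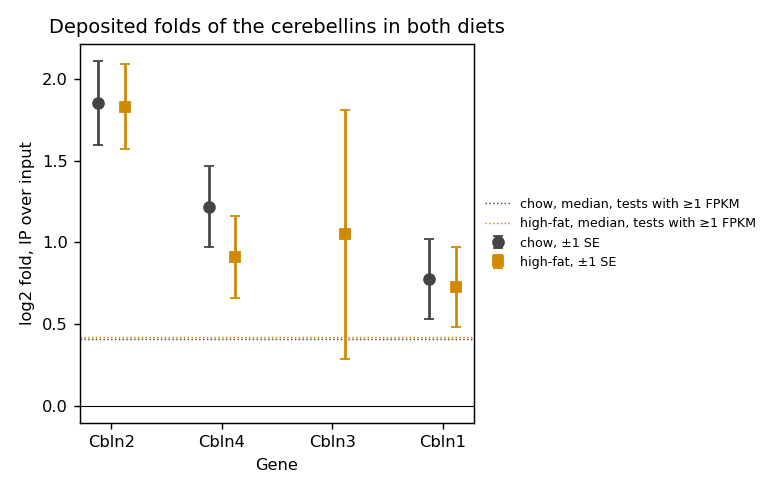
Authors' deposited log2 fold of IP over input for each cerebellin, with bars of 1 standard error recovered from the authors' statistic, in chow (circles) and high-fat diet (squares); dotted lines are the medians of listed tests that reached 1 FPKM, 0.41 and 0.42. Cbln2 lies highest in both diets at 1.85 and 1.83, and the bar of Cbln3 is the widest (0.76).

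With these folds, the make-up of the family differed between whole tissue and tagged ribosomes, again as a description without a test. Of the summed FPKM of Cbln1, Cbln2 and Cbln4 in chow, Cbln1 held 66.4% in the input and 54.1% in the IP. The share of Cbln2 went from 14.1% to 24.3%, and that of Cbln4 from 19.5% to 21.6%. After the high-fat diet Cbln1 went from 63.6% to 53.1%, Cbln2 from 14.7% to 26.4% and Cbln4 from 21.7% to 20.6%. Cbln1 thus had 4.70 times the FPKM of Cbln2 in the chow input and 2.22 times in the chow IP, and these ratios were 4.32 and 2.01 after the high-fat diet. In the input Cbln4 ranked above Cbln2 (10.7 and 7.78 FPKM in chow), whereas in the IP Cbln2 ranked above Cbln4 (28.2 and 25.0 FPKM). No spread per group is given, so whether neighbours in these orders of level differ beyond their spread is not known.

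**Figure D3:**
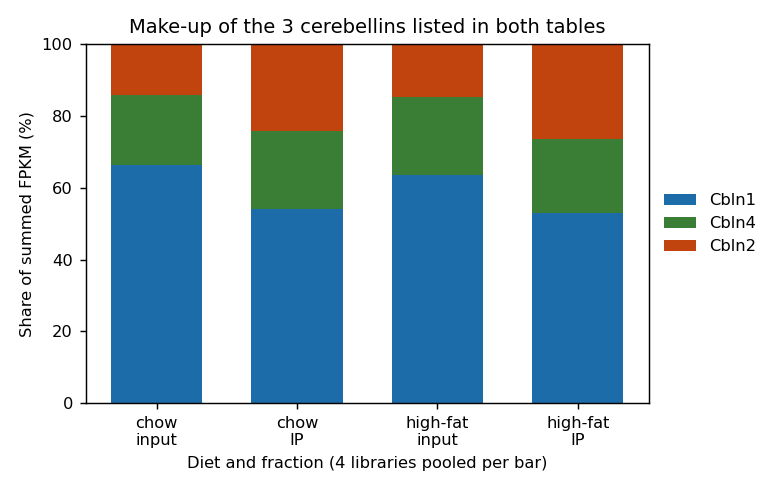
Share of each of the 3 cerebellins listed in both tables in their summed FPKM (percent), 1 bar for each diet and fraction of 4 pooled libraries. The share of Cbln2 is higher in the IP than in the input of the same diet (24.3% against 14.1% in chow, 26.4% against 14.7% after the high-fat diet), and that of Cbln1 is lower.

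The comparison of the diets asks whether the enrichment on tagged ribosomes differed after 3 days of high-fat feeding. For Cbln2 the log2 fold after the high-fat diet was lower than in chow by less than the error, with a centred difference of -0.03 and a 95% interval from -0.74 to 0.69. The difference was -0.05 for Cbln1 (interval -0.73 to 0.63) and -0.32 for Cbln4 (interval -1.0 to 0.37). None passed the z-test, in which the adjusted p (Benjamini-Hochberg over 5149 tests) was 1 for all 3 genes and the unadjusted p was 0.938, 0.880 and 0.367. Of all 5149 tests, 0% passed, and 1 had an unadjusted p under 0.05. The test could hardly call a difference of the size these tables hold: the median standard error of a difference was 0.43 log2 units, while 90% of the centred differences were smaller than 0.29, and the recovered errors are wide. That no gene passed therefore says nothing about stability between diets. The intervals are wide enough to hold differences of more than 0.5 log2 units in either direction for Cbln1 and Cbln2, so they do not show that the folds were equal.

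Cbln4 had the largest difference of the 3, though it did not pass the test. Its centred difference was larger in size than that of 91.6% of tests, against 30.8% for Cbln1 and 18.2% for Cbln2. It combined a lower level in the IP, where the high-fat group stood at 86.5% of chow (21.6 and 25.0 FPKM), with a higher level in the input, at 107% of chow (11.5 and 10.7 FPKM). Cbln1 stood at 89.1% of chow in the IP and at 92.0% in the input, and Cbln2 at 98.4% and 99.9%. Over all tests the log2 ratio of high-fat to chow ran from -0.33 to 0.27 in the IP (5th to 95th percentile), and every one of these log2 changes (-0.21 for Cbln4, -0.17 for Cbln1 and -0.02 for Cbln2) lay inside that range. It is not stated whether both tables were scaled together, and the changes of level between diets have no test.

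**Figure D4:**
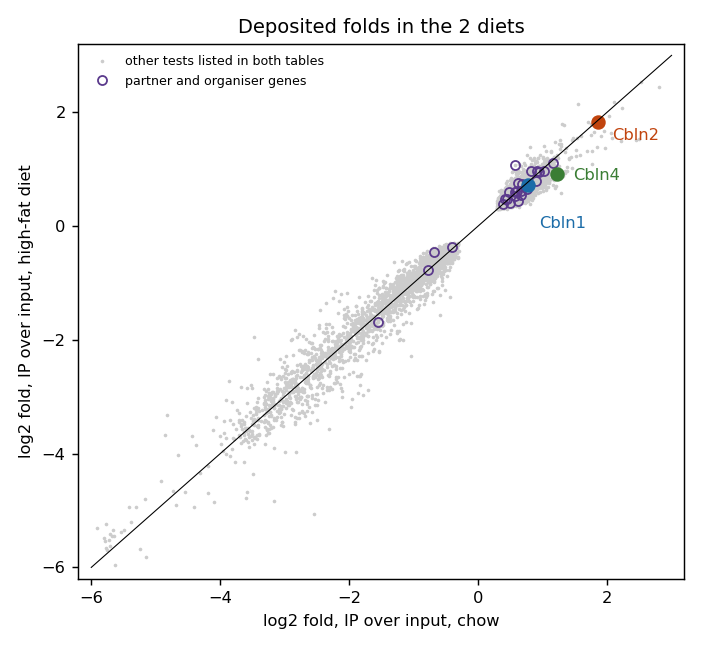
Deposited log2 fold of IP over input in chow (x axis) against the high-fat diet (y axis) for 5149 tests listed in both tables that reached 1 FPKM in each diet (grey), with partner and organiser genes as open circles and the cerebellins as filled circles; the line marks equal folds. Cbln1 and Cbln2 lie close to the line and Cbln4 below it (1.22 in chow and 0.91 after the high-fat diet); the gap around 0 arises because only tests that the authors called significant are listed.

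Of 7 receptors and bridging partners of the cerebellins, 2 were called enriched in each diet and 0 were called depleted, beside 14.8% of all tests called enriched in chow and 14.9% after the high-fat diet. With 7 genes, this count is too small to set against the overall share and is no result about the partners. Nrxn3, a presynaptic neurexin, had 109 FPKM in the input against 211 FPKM in the IP in the authors' deposited chow table, and at 115 and 223 FPKM after the high-fat diet, with a log2 fold of 0.95 in both. Grid1, which encodes a delta-type glutamate receptor, went from 6.62 to 10.1 FPKM in chow (log2 fold 0.61) and from 7.23 to 9.79 FPKM after the high-fat diet (0.44). The IP levels of Nrxn3 and Grid1 were 193% and 153% of their input in chow. Exons of Nrxn3 share 439 of 12605 bases with the annotated gene Gm37980, and those of Grid1 91 of 5962 with Gm27617. The test of Grid1 also holds 2 identifiers, so some reads of these genes may be shared.

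Of the C1q-like genes and complement C1q chains looked up here, those listed were depleted, and the rest have no value. Further genes with a C1q domain, cerebellins aside, were not looked up. Of 4 C1q-like synaptic proteins and their receptor Adgrb3, C1ql3 was the 1 listed gene and was called depleted, from 5.35 to 3.33 FPKM in the authors' deposited chow table (log2 fold -0.68) and from 5.15 to 3.77 FPKM after the high-fat diet (-0.45). Exons of C1ql3 overlap those of annotated genes Gm37811 and Gm37824 over 1627 of 2535 bases, so reads may be shared. The complement chains C1qa, C1qb and C1qc, made by microglia in brain, were all depleted, with log2 folds from -3.70 to -3.29 in chow and from -3.41 to -2.90 after the high-fat diet.

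Other ligands of neurexins were enriched wherever they were listed. In the authors' deposited tables, 10 of 14 were called enriched and 0 depleted in each diet, beside 14.8% and 14.9% of all tests called enriched in chow and after the high-fat diet. Their median log2 fold was 0.72 in chow and 0.85 after the high-fat diet, against 0.41 and 0.42 over listed tests that reached 1 FPKM. All 4 members of the Lrrtm family of postsynaptic adhesion proteins were among them, led by Lrrtm1. Its level went from 14.5 to 32.5 FPKM in chow (log2 fold 1.17). Lrrtm2, at a log2 fold of 0.38 in both diets, lay below the median of listed tests that reached 1 FPKM. The calsyntenin Clstn3 went from 27.3 to 55.2 FPKM (1.02), and Nlgn2, the neuroligin of inhibitory synapses, from 23.6 to 37.6 FPKM (0.67). The secreted neurexophilins Nxph1, Nxph3 and Nxph4 had log2 folds of 0.57, 0.57 and 0.91, and the latrophilin Adgrl1 had 0.67 with a q-value of 0.0362. Nlgn1, Nlgn3, Nxph2 and Dag1 were not listed. The spans deposited for Lrrtm1, Lrrtm2 and Lrrtm3 are 72.7, 22.6 and 9.73 times as long as the genes, while exons of Lrrtm1 and Lrrtm3 overlap no exon of another annotated gene. Exons of Lrrtm4 share 1543 of 6147 bases, those of Adgrl1 1343 of 8587 and those of Lrrtm2 95 of 6022 with other annotated genes, so reads of these may be shared.

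The next list held 20 genes: receptor phosphatases, their ligands, and relatives of those ligands that need not bind a phosphatase. Of these 20, 10 were called enriched and 3 depleted in each diet in the authors' deposited tables, with medians of 0.57 and 0.60. Beside these counts, 14.8% of all tests were called enriched and 12.7% depleted in chow, and 14.9% and 12.1% after the high-fat diet, so the depleted share was near that of all tests. The phosphatases themselves split, with Ptprf (log2 fold 0.90 in chow) and Ptprs (0.57) enriched and Ptprd depleted, from 48.7 to 28.5 FPKM (-0.77). Of the 6 Slitrk ligands 4 were enriched, with chow log2 folds of 0.62 (Slitrk1), 0.45 (Slitrk3), 0.48 (Slitrk4) and 0.49 (Slitrk6), and Slitrk2 was depleted (-0.41). Also enriched in chow were Lrfn2 (0.76), Lrfn3 (0.78), Lrfn5 (0.60) and Lrrc4b (0.66). The ligand Il1rap, a co-receptor of interleukin 1, had the lowest fold of the list (-1.56 in chow, -1.69 after the high-fat diet). Among neuronal pentraxins Nptx1 and Nptx2 were not listed, and Nptxr was listed in a test shared with Cbx6 and Npcd, so its log2 fold of 0.41 cannot be assigned to it.

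Over all 5 lists, 23 of 49 genes were called enriched and 4 depleted in chow, and 23 and 4 after the high-fat diet, the shared test of Nptxr included, beside 14.8% and 14.9% of all tests called enriched and 12.7% and 12.1% called depleted. Beside Lrrtm1 and Clstn3, no listed partner or organiser reached a 2-fold enrichment in chow, and in that table the log2 folds of Cbln2 (1.85) and Cbln4 (1.22) exceeded those of all 27 listed genes. After the high-fat diet Cbln4 (0.91) lay below Lrrtm1 (1.11) and Nxph3 (1.08), among others. None of the listed genes passed the z-test of the difference between diets, which could hardly call one. These lists were chosen with earlier results known and are described by count and median alone.

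**Figure D5:**
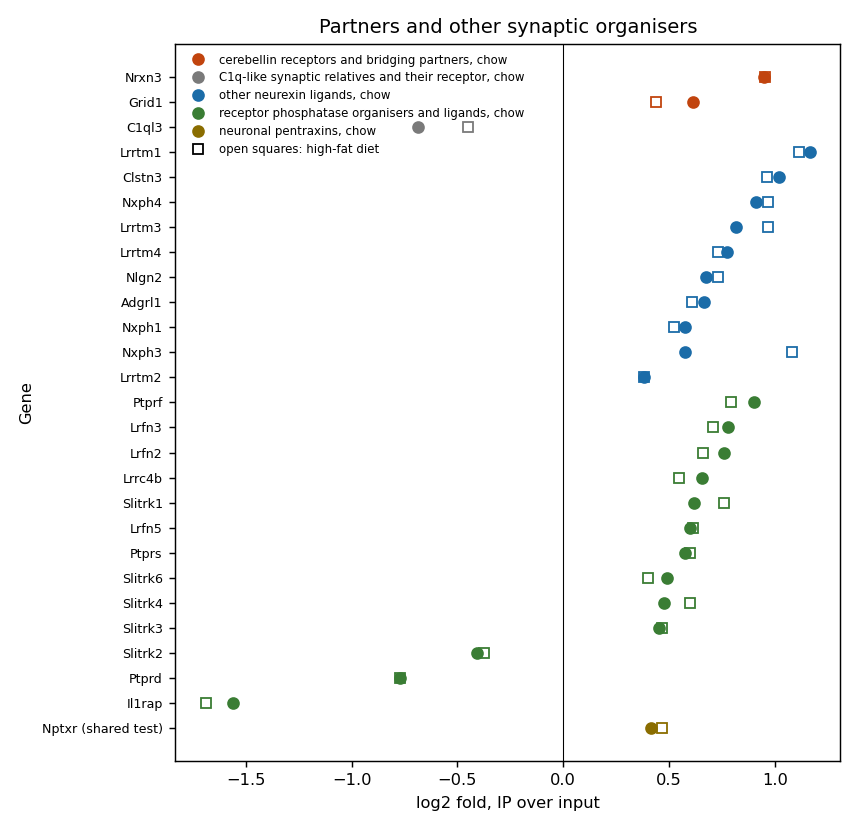
Authors' deposited log2 fold of IP over input for the 27 listed partner and organiser genes, by list, in chow (filled circles) and high-fat diet (open squares). Nrxn3, Grid1 and all 10 listed neurexin ligands lie above 0 in both diets, and C1ql3, Slitrk2, Ptprd and Il1rap lie below 0 in both; Nptxr comes from a test shared with other genes.

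The genes whose folds were most like those of each cerebellin were taken from 4556 protein-coding genes listed in both tables, by the Euclidean distance over the log2 folds in chow and in the high-fat diet. Nearest to Cbln2 were Lef1 (an effector of Wnt signalling, distance 0.11 log2 units), Hdc (the histamine-making enzyme, 0.18), Prph (the neurofilament-related protein peripherin, 0.19), Hist1h4a (0.25) and Tac2 (the precursor of neurokinin B, 0.26). Hist1h4a belongs to a family of near-identical histone copies, so its value is uncertain. For Cbln1 they were Scoc, Lrrtm4, Mib2, Incenp and Camk1, all within 0.01 log2 units. For Cbln4 they were Ndufb7, Uqcrq, Pafah1b3, Slc29a1 and Selenom, within 0.05. Each cerebellin's own standard errors (0.24 to 0.26) exceeded these distances, so which genes are nearest is uncertain. Over 4 log2 FPKM values (both fractions and both diets) in place of 2 folds, Hdc stayed among the 5 nearest to Cbln2, and 0 of the 5 stayed for Cbln1 and for Cbln4.

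Markers of cell types, whether of the marked cells or of others, moved as follows in the authors' deposited tables. Their part in the values of the cerebellins was not tested. Of 6 markers of thalamic neurons, which lie next to the hypothalamus, 4 were enriched in each diet (among them Lef1, Gbx2 and Prkcd), with a summed input level of 157 FPKM and a summed IP level of 404 FPKM in chow, and 123 and 324 FPKM after the high-fat diet. Their median log2 fold was 1.47 in chow and 1.53 after the high-fat diet, between those of Cbln4 and Cbln2. None of 4 habenular markers was listed in chow, and 1 (Pou4f1) was depleted after the high-fat diet. The GABAergic genes Gad1, Gad2 and Slc32a1 were all enriched (median 0.82 and 0.76), as were the glutamatergic transporters Slc17a6 and Slc17a7 (0.63 and 0.56). All 6 astrocyte and all 6 oligodendrocyte markers and 6 of 7 microglial markers were depleted in both diets, with medians from -3.48 to -3.17, as were the 3 endothelial markers listed in chow (median -1.32) and the 2 listed after the high-fat diet (-3.14).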

How the data were processed

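RNA of 16 libraries (4 input and 4 IP for each of 2 diets) was measured by sequencing after cDNA amplification with oligo(dT) and random primers, per the labels' protocols. Amplifying small amounts of RNA can shift levels between input and IP. The build GRCm38.p6 and the tools Cuffdiff, Cufflinks 2.2.1, StringTie 1.3.4d and HISAT2 2.1.0 are named per the submitters' processing notes. How libraries were scaled and whether strand was used is not given in the sources used here. For each diet, 1 table of significant tests was deposited with the FPKM that the authors computed per group. The deposited log2 fold is IP over input, computed by the authors and recomputed within 1.31e-05. The deposited test statistic is a signed score without a unit, beside the authors' p-value and q-value.

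Entries that repeat a locus and its values were merged. Deposited starts count from 0 and are printed from 1: with that shift, 74.3% of the chow and 74.4% of the high-fat spans of tests with 1 identifier equal the GENCODE M21 gene. The tests per table were inferred from pooled Benjamini-Hochberg ranks (48363 to 48815 over both tables). It was assumed that no other comparison was adjusted with them and that both tables had equally many tests. Standard errors are log2 fold over statistic. They are wide, since the normal deviate of the deposited p was 1.96 (chow) and 1.95 (high-fat) times the statistic. The diet difference, centred on its median of 0.0062, was tested by a two-sided z-test, a normal approximation (SciPy 1.17.1). With these wide errors it makes few calls. Interval bounds are 95%. Genes were named by a fixed rule: the 4 cerebellins, listed pathway genes, up to 3 members of marker lists, and the 5 nearest genes. Members, lists and tests were chosen with earlier results of these data known. Per-sample columns left unused numbered 0.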

Additional observations from a re-analysis of the deposited data

How the results depend on the processing

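No paired analysis was possible because the tables give 1 value per group and none per library; for the same reason no library could be left out. An error from the authors' p-value was not computed, since the p of Cbln1, Cbln2 and Cbln4 is the lowest the tables give. The 3 chow calls and 4 high-fat calls of cerebellins kept their direction after centring. A pseudocount (0.1 or 1 FPKM) cannot change a direction, so it is no check of these calls. Requiring a q of 0.01 or at least 1 FPKM left 3 in the high-fat table, without Cbln3. Requiring at least 2-fold left 2 of the chow calls (Cbln2 and Cbln4) and 2 of the high-fat calls (Cbln2 and Cbln3). The 2-fold call of Cbln3 depends on its low level. Its log2 fold fell from 1.05 to 0.85 at a pseudocount of 0.1 FPKM and to 0.32 at 1 FPKM. Centred on the table median, the listed partner and organiser genes counted 22 above and 5 below in chow, and 21 and 6 after the high-fat diet. Lrrtm2 was among those that fell below in both. Of the partner and organiser calls, at least 2-fold left 2 enriched and 1 depleted in chow and 2 enriched and 1 depleted after the high-fat diet. A q of 0.01 left 2 depleted of 4 in that table. The diet differences of Cbln1, Cbln2 and Cbln4 stayed short of the threshold in all alternatives run, in a test that could hardly call one; Cbln3 has none. Of 48 alternatives on the main counts and differences, 42 stayed within 1.5 times or on the same side and 6 moved. The counts at a pseudocount are among the 42 and could not have changed. Depth is unknown, which limits Cbln3 most.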

Other observations

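Genes that the deposited tables annotate to positive regulation of synapse assembly, a term carried by Cbln1 and Cbln2, went both ways. Cerebellins aside, 24 of 35 listed tests were enriched and 11 depleted in chow (median log2 fold 0.48), and 26 of 33 were enriched and 7 depleted after the high-fat diet (0.55). Of all listed tests, 53.8% were enriched in chow and 55.2% after the high-fat diet. Of the annotated tests, 15 for each diet were in the lists above. In the authors' deposited chow table, the calsyntenin Clstn1 went from 60.6 to 110 FPKM (log2 fold 0.86) and the acid-sensing channel Asic2 from 19.2 to 33.3 FPKM (0.79). The most depleted gene was Oxt, the oxytocin precursor, from 27.0 to 2.83 FPKM (-3.26). Ntrk2, the receptor of brain-derived neurotrophic factor, was also depleted, from 114 to 41.8 FPKM (-1.45). So was the thrombospondin Thbs2, a secreted organiser made by astrocytes, from 0.786 to 0.196 FPKM (-2.00), under 1 FPKM in both fractions. The neurotrophin Bdnf itself was enriched at 0.36. These genes were named after their values were seen.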
